A study of Homo sapiens with 6 samples.

Results

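The genes of the PERK and ATF6 arms of the unfolded protein response were examined in RNA that had been exposed to the RNase of the remaining arm, IRE1. The 10 genes were listed by name: the sensors EIF2AK3 (PERK), ATF6 and ATF6B, the transcription factors ATF4 and DDIT3 (CHOP), the phosphatase subunits PPP1R15A and PPP1R15B, the proteases MBTPS1 and MBTPS2, and the pseudokinase TRIB3. All 10 were found by symbol among the 57905 gene identifiers of the count files, and all 10 passed the filter on low counts, with 304 to 25535 reads per gene and library.

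When unfolded proteins accumulate in the endoplasmic reticulum (ER), PERK phosphorylates the translation factor eIF2α, which slows protein synthesis in general while favouring translation of ATF4 mRNA. ATF4 then induces DDIT3 and TRIB3, and the PPP1R15 proteins bring phosphatase to eIF2α and so restore translation. ATF6 travels to the Golgi apparatus, where the proteases encoded by MBTPS1 and MBTPS2 release its cytosolic part as a transcription factor for ER chaperones. Plasma cells and myeloma cells secrete large amounts of immunoglobulin and are known to rely on this response.

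RNA came from NCI-H929, an established multiple myeloma cell line, and the reactions contained purified RNA rather than living cells. In each reaction 5 μg of total RNA was held for 1 h at 37 °C with 2 μg of a recombinant fragment of human IRE1α (amino acids 467 to 977), or without enzyme in the control group, and all reactions were stopped at 95 °C. Each group had 3 libraries, and the design text of the series speaks of biological replicates without saying how they were separated, so the p-values measure the spread between these samples. Between 19615715 and 25678499 reads per library fell on genes. All 10 plasma cell and H929 markers were detected, with 408 reads as the lowest value (CD38), whereas CD14, MS4A1, EPCAM and HBB did not exceed 3 reads, COL1A1 had 5 to 13 and the T cell gene CD3E had 890 to 1063. IRE1-treated replicate 1 stood apart: its chi-square per gene against the other treated libraries was at least 7.03, compared with 3.39 between those libraries and 2.21 to 3.07 among the controls. Results that rest on this library are therefore also given without it.

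The assay itself was read from genes of the IRE1 arm. BLOC1S1, a well-known IRE1 substrate that encodes a lysosome biogenesis subunit, had 606, 582 and 649 normalized counts in the controls and 275, 230 and 211 after IRE1, with no overlap. Normalized counts are reads divided by the effective library size, at the scale of the mean library. The log2 fold change of BLOC1S1 was -1.37 (SE 0.0950, edgeR adjusted p = 1.25e-06), although part of its exonic sequence is shared with ENSG00000258311 on the same strand. XBP1, the mRNA that IRE1 splices in cells, averaged 59734 ± 1290 normalized counts in the controls and 56022 ± 1717 in the treated group (SD, n = 3), with no overlap between the groups and a log2 fold change of -0.09 (edgeR adjusted p = 0.143). XBP1 was called lower in 4 of 15 alternatives, among them library size alone (-0.17, edgeR adjusted p = 0.00371), removal of a trend with transcript length and GC content (-0.21, edgeR adjusted p = 9.48e-04) and the fit without IRE1-treated replicate 1 (-0.11, edgeR adjusted p = 0.0276), and its adjusted p ran from 9.48e-04 to 0.386. ERN1, the gene of IRE1 itself, fell by 0.28 on the log2 scale (edgeR adjusted p = 0.00117). With the length and GC trend removed its log2 fold change was -0.05 and no longer passed (edgeR adjusted p = 0.415), and it was called in 13 of 15 alternatives. The libraries were poly(A)-selected, and the paper states that cut mRNAs lose the part upstream of the cut during purification. Reads downstream of a cut stay in the gene count, which therefore reports a partial loss of reads and not a cleavage event. At the level of exons, the paper reports clearly fewer XBP1 reads upstream of the cut sites after IRE1 and similar numbers downstream. By qRT-PCR across the cut sites it also found markedly lower XBP1 and BLOC1S1 mRNA.

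IRE1 is known to cut RNA in small hairpin loops that hold the bases CNGCAG, and the transcripts of the 10 genes were searched for such sites. A site was counted where, in the folded 15 bases on either side of the motif, the third base lay unpaired in a hairpin loop (5 to 11 bases) above a stem of 3 or more pairs. The motif was present in the longest coding transcript of all 10 genes, and a counted site in 8 of them, the exceptions being EIF2AK3 (5 motifs) and ATF4 (9 motifs). Among 12225 tested protein-coding genes, 61.9% had a counted site. With the stricter motif CUGCAG the number was 2 of 10 (PPP1R15B and TRIB3) against 36.9% of genes. Only TRIB3 had a loop of exactly 7 bases, as in the second XBP1 site, against 16.5% of genes. The 2 CUGCAG sites are shown with sites of ATF6, ATF6B and DDIT3, and with XBP1 and BLOC1S1 for comparison, with the motif in capitals and 12 transcript bases on either side, from GENCODE release 44.
PPP1R15B: ucuuugaguucgCUGCAGcucgacuccuca
TRIB3: ccuacgccuugcCUGCAGgccucucggccc
ATF6B: aagcugcugaagCGGCAGcagcgaaugauc
ATF6: cuuuauugcuucCAGCAGcacccaagacuc
DDIT3: aggagccagaacCAGCAGaggucacaagca
XBP1, first site: ggucugcugaguCCGCAGcacucagacuac
XBP1, second site: cuacgugcaccuCUGCAGcaggugcaggcc
BLOC1S1: gagaggcuaucaCUGCAGcgaccugccuga

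All of these sites lie in coding sequence. On GRCh37 the motif of PPP1R15B is at chr1:204380156-204380161 (minus strand, exon 1 of 2, loop of 8 bases) and that of TRIB3 at chr20:377099-377104 (plus strand, exon 4 of 4, loop of 7 bases). The ATF6B motif is at chr6:32086898-32086903 (minus strand, exon 10 of 18) and the ATF6 motif at chr1:161761989-161761994 (plus strand, exon 6 of 16). The DDIT3 motif is at chr12:57910888-57910893 (minus strand, exon 4 of 4). The sites in XBP1 are in exon 4 of 5, at chr22:29192138-29192143 and chr22:29192112-29192117. The site in BLOC1S1 is in exon 2 of 3, at chr12:56110741-56110746, which is bases 184 to 189 of the longest transcript. The paper cites a known BLOC1S1 cut at a later base number without naming the transcript. Whether the printed site is that one was not tested. When 30 bases on either side were folded, 7 of the 10 genes had a counted site (42.9% of all genes), with EIF2AK3 now among them and PPP1R15B and MBTPS1 no longer. Of the printed sites, those of PPP1R15B, ATF6 and BLOC1S1 and the first of XBP1 were not counted with this longer fold. ATF6 and PPP1R15A kept a counted site only through other motifs, which lie after the coding sequence. A match describes the sequence, and the gene counts do not show whether it was cut.

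Without enzyme, the transcription factor ATF4 was by far the most abundant of the 10 mRNAs. Levels are normalized counts per kilobase of all annotated exons, and the controls gave 8276 ± 67.9 for ATF4 (SD, n = 3), higher than 99.2% of the tested protein-coding genes. ATF6B followed with 1282 ± 8.84, PPP1R15A with 1076 ± 7.86 and TRIB3 with 655 ± 27.2. The kinase EIF2AK3 had 465 ± 23.7 and the Golgi protease MBTPS1 354 ± 6.82. DDIT3, which is usually low outside ER stress, had 302 ± 7.20, and the sensor ATF6 had 251 ± 5.10, below its relative ATF6B. PPP1R15B, the phosphatase subunit expressed without stress, had 167 ± 6.17, and MBTPS2, the second protease, had 54.5 ± 2.86, so that the ATF4 level was 152 times that of MBTPS2. No neighbours in this order overlapped among the 3 controls. The order depended on the length chosen: EIF2AK3 has 20691 exonic bases in the annotation but a longest coding transcript of 4724 bases, and per kilobase of that transcript its level was 2039, which moved it from rank 5 to rank 2. ATF6 and DDIT3 also exchanged places (479 and 370 per kilobase of the longest transcript). The ratio of ATF4 to MBTPS2 was smaller with that length (10711 and 109).

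**Figure D1:**
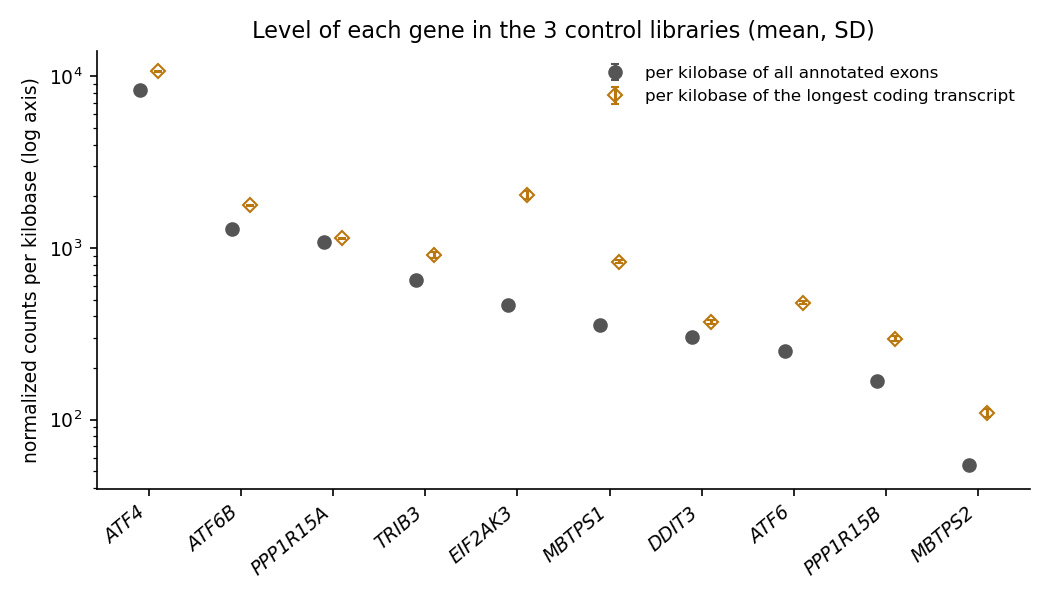
Mean level of each of the 10 genes in the 3 control libraries, in normalized counts per kilobase on a log axis, with SD as bars (often smaller than the symbol). Filled circles use all annotated exons and open diamonds the longest coding transcript. ATF4 is highest (8276) and MBTPS2 lowest (54.5) with either length, and EIF2AK3 shifts most between them (465 and 2039).

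After IRE1 treatment the scaled counts of the 10 mRNAs differed by small amounts and in both directions. Counts are relative to the library, so higher means a larger share of the reads from purified RNA, and not that mRNA was made. EIF2AK3 and PPP1R15B were lower and ATF4 was higher in the IRE1-treated group, and the other 7 genes did not pass the threshold (edgeR's quasi-likelihood test, Benjamini-Hochberg adjusted p under 0.05 over 14398 genes). In simulated data with far fewer changed genes than were called here, this fit recovered 40 of 100 planted 1.2-fold changes. That share does not give the power of the test in these data, and a gene that did not pass may still differ. The background was high: 22.7% of all tested genes were called, 12.4% lower and 10.3% higher, so that 3 of 10 is close to what all genes gave. The groups did not overlap for 2 genes that were lower (PPP1R15B and MBTPS1) and 3 that were higher (ATF4, DDIT3 and PPP1R15A). Over all genes the groups did not overlap for 39.1%, with 20.0% lower and 19.1% higher. The median log2 fold change was 0.02 over the 10 genes and 0.0045 over all tested genes. The direction of calls depended on the scaling. With library size alone, 22.8% of all genes were called, 18.0% lower and 4.74% higher (79.2% of calls lower, against 54.5% with TMM scaling), and 4 of the 10 genes were then lower: EIF2AK3, PPP1R15B, MBTPS1 and MBTPS2. ATF4 remained higher with both scalings.

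**Figure D2:**
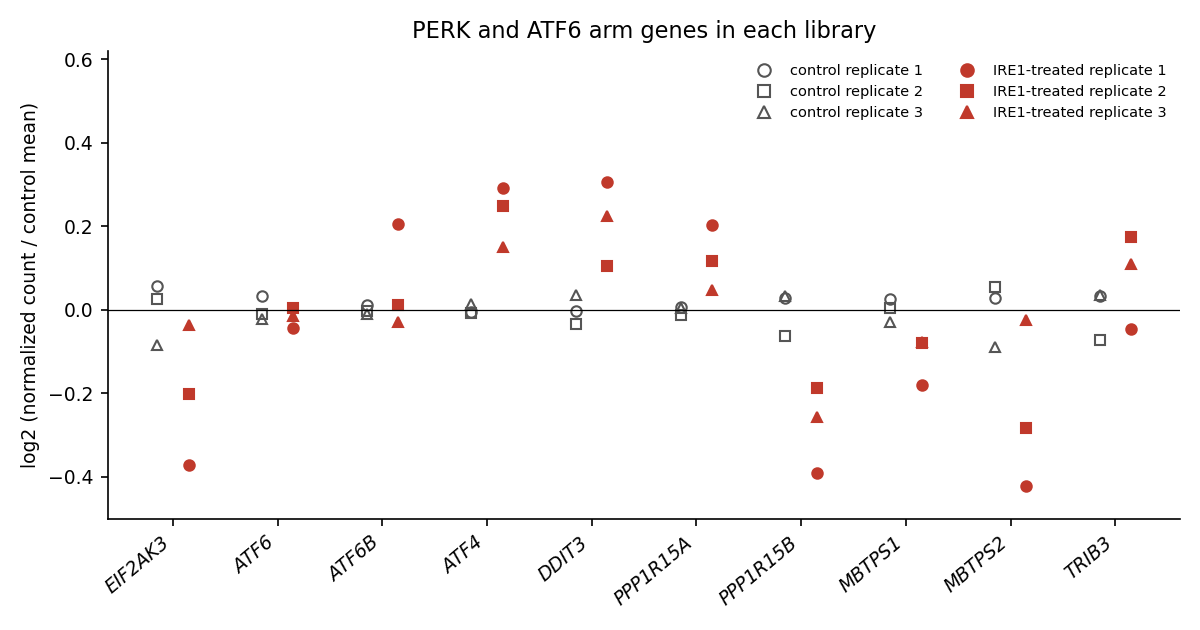
Each library's value for the 10 genes, as the log2 ratio of its normalized count to the mean of the 3 controls. Open grey symbols are controls and filled red symbols IRE1-treated libraries, with circles, squares and triangles for replicates 1, 2 and 3. The treated ATF4 values all lie above the controls and the treated PPP1R15B values all lie below them, and treated replicate 1 (circles) is often the farthest from 0.

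In the PERK arm the sensor was lower and its downstream factor higher. EIF2AK3, which encodes the ER kinase that phosphorylates eIF2α, had 10012, 9801 and 9078 normalized counts in the controls and 7447, 8381 and 9398 in the IRE1-treated libraries. The lowest control lay below the highest treated library, so the groups overlapped. Its log2 fold change was -0.20 (SE 0.0681, edgeR adjusted p = 0.0497), which is just inside the threshold. The call was kept in 6 of 15 alternatives, whose adjusted p ran from 4.45e-04 to 0.390 (edgeR, DESeq2 and limma). Without IRE1-treated replicate 1 the log2 fold change was -0.11 (edgeR adjusted p = 0.0812), and without replicate 3 it was -0.28. Leaving out any control or treated replicate 2 also ended the call, with log2 fold changes of -0.17, -0.18 and -0.24 without controls 1, 2 and 3 and -0.19 without treated replicate 2. EIF2AK3 (ENSG00000172071) lies at chr2:88856259-88991036 on the minus strand, and an antisense gene over its exons had at most 3 reads.

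ATF4, the transcription factor of the integrated stress response, had 21548, 21501 and 21829 normalized counts in the controls and 26478, 25701 and 23982 after IRE1. Every treated library was above every control. The treated mean was 25387 ± 1277 against 21626 ± 178 (SD, n = 3), or 117% of the control, and the log2 fold change was 0.23 (SE 0.0470, edgeR adjusted p = 0.00281). The difference passed the threshold in 14 of 15 alternatives and was 0.20 without IRE1-treated replicate 1 (edgeR adjusted p = 2.09e-04). ATF4 (ENSG00000128272) is a short gene at chr22:39915700-39918688 on the plus strand, and 4 pseudogenes carry its name in the annotation, so some reads may have been lost or exchanged in counting.

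DDIT3 encodes CHOP, which promotes cell death in prolonged ER stress, and TRIB3 is a target of both ATF4 and CHOP. DDIT3 had 394, 386 and 405 normalized counts in the controls and 489, 425 and 461 in the treated libraries. All treated values were higher, but the log2 fold change of 0.21 did not pass the test (SE 0.0791, edgeR adjusted p = 0.0632, and 0.0555 to 0.853 over the alternatives). With the length and GC trend removed it was 0.035. The gene (ENSG00000175197, chr12:57910371-57915520, minus strand) shares exonic sequence with MARS1 (6517 to 8774 reads) and MBD6 on the opposite strand, and since the strand setting of the counting is not stated, the small DDIT3 counts are uncertain. TRIB3 (ENSG00000101255, chr20:343479-378203, plus strand) had 2204, 2051 and 2209 normalized counts in the controls and 2086, 2430 and 2323 in the treated libraries. Treated replicate 1 lay among the controls and the other treated libraries lay above them. The log2 fold change of TRIB3 was 0.08 (SE 0.0591, edgeR adjusted p = 0.351), and without replicate 1 it was 0.14 (edgeR adjusted p = 0.0344, and 0.0344 to 0.948 over the alternatives).

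The regulatory subunits of the eIF2α phosphatase lay on opposite sides of the controls. PPP1R15B, the constitutive subunit, had 1589, 1492 and 1594 normalized counts in the controls and 1189, 1369 and 1306 after IRE1. The treated mean was 82.6% of the control and no values overlapped. Its log2 fold change of -0.27 was the lowest of the 10 genes (SE 0.0597, edgeR adjusted p = 0.00431), and the gene was called in 13 of 15 alternatives, with -0.22 when IRE1-treated replicate 1 was left out (edgeR adjusted p = 0.00389). PPP1R15B (ENSG00000158615) lies at chr1:204365620-204381015 on the minus strand and holds the CUGCAG site printed above. That site was not counted when 30 bases were folded on either side, and 36.9% of tested protein-coding genes have a counted CUGCAG site. Whether it was cut was not tested. PPP1R15A (GADD34), the subunit induced by ATF4 and CHOP, had 3715, 3664 and 3706 normalized counts in the controls and 4253, 4010 and 3821 after IRE1. All treated values were higher, but the log2 fold change of 0.12 did not pass (SE 0.0495, edgeR adjusted p = 0.0841), except when treated replicate 3 was left out (0.17, edgeR adjusted p = 0.0156, and 0.0156 to 0.492 over the alternatives). It lies at chr19:49375469-49379316 on the plus strand (ENSG00000087074).

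Ratios of raw reads within a library do not depend on scaling, and 3 pairs of genes with like roles were compared in this way after their values had been seen. The ratio PPP1R15A to PPP1R15B was 2.34, 2.46 and 2.32 in the controls and 3.58, 2.93 and 2.93 after IRE1, without overlap. All treated PPP1R15A values lay above the controls and all treated PPP1R15B values below them. The separation of this ratio, and its p-value, therefore followed from values already seen and add no further support. The log2 difference was 0.40, and the two-sided exact permutation test gave p = 0.1, the smallest that 3 against 3 allows (Benjamini-Hochberg adjusted over the pairs, 0.3). A ratio does not cancel a trend with transcript length, and these transcripts have 3252 and 5259 bases. With the length and GC trend removed, the log2 fold changes were 0.11 for PPP1R15A and -0.13 for PPP1R15B. The ratio ATF6B to ATF6 was 1.28, 1.31 and 1.31 in the controls and 1.55, 1.31 and 1.29 after IRE1, where treated replicate 1 alone was apart (exact permutation p = 0.6, adjusted 0.6). The ratio MBTPS1 to MBTPS2 was 7.44, 7.20 and 7.77 in the controls and 8.81, 8.59 and 7.20 after IRE1 (exact permutation p = 0.4, adjusted 0.6). For the ATF6 pair and the protease pair the groups overlapped.

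In the ATF6 arm no gene passed the threshold. ATF6, the ER-anchored transcription factor, had 3660, 3550 and 3522 normalized counts in the controls and 3470, 3589 and 3543 in the treated libraries. The groups overlapped, with treated replicate 1 below the controls, and the log2 fold change was -0.02 (SE 0.0456, edgeR adjusted p = 0.824). ATF6B, its weaker relative, had 4686, 4646 and 4622 normalized counts in the controls and 5364, 4691 and 4556 after IRE1. Treated replicate 1 was well above the controls, replicate 2 was level with the highest of them and replicate 3 was below them. The log2 fold change was 0.07 (SE 0.0570, edgeR adjusted p = 0.452) and -0.0068 without that library, and with library size alone it was -0.012. ATF6 (ENSG00000118217) lies at chr1:161736088-161947364 on the plus strand. ATF6B (ENSG00000213676) lies at chr6:32083041-32096030 on the minus strand and shares exonic sequence with TNXB on the same strand, which had 52 to 102 reads.

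The proteases that activate ATF6 had lower mean values after IRE1, but neither passed. MBTPS1 (site-1 protease), which makes the first cut, had 3697, 3645 and 3558 normalized counts in the controls and 3208, 3441 and 3446 in the treated libraries. The groups did not overlap, with a log2 fold change of -0.11 (SE 0.0481, edgeR adjusted p = 0.112), and with library size alone it was -0.19 (edgeR adjusted p = 0.0187, and 0.0187 to 0.550 over the alternatives). MBTPS2 (site-2 protease), which cuts within the membrane, had 497, 506 and 458 normalized counts in the controls and 364, 401 and 479 in the treated libraries. Treated replicate 3 lay among the controls. The log2 fold change of MBTPS2 was -0.23 with the largest SE of the 10 genes (0.0941, edgeR adjusted p = 0.0934), and it was -0.34 without treated replicate 3 (edgeR adjusted p = 0.00513, and 0.00513 to 0.533 over the alternatives) and -0.14 without treated replicate 1. MBTPS1 (ENSG00000140943) lies at chr16:84087366-84150547 on the minus strand. MBTPS2 (ENSG00000012174) lies at chrX:21857735-21903541 on the plus strand, where it shares exonic sequence with YY2 (9 to 25 reads).

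The treated libraries differed in how far the 10 genes moved. The median absolute log2 distance from the control mean was 0.249 in replicate 1, 0.146 in replicate 2 and 0.0624 in replicate 3. When replicate 1 was left out, 1 of the 10 genes was lower (PPP1R15B) and 2 were higher (ATF4 and TRIB3). The TMM factors followed the same order, with 0.947, 0.980 and 0.996 for the treated libraries and 1.02 to 1.03 for the controls. The part of these library differences in the results was not tested.

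The fold changes ran with transcript length. Over the 14111 genes with a length and GC content, log2 fold change and transcript length had a Spearman correlation of -0.56, and over the 10 genes it was -0.82 (genes are not independent replicates, and these points share the same 6 libraries). The 5 longest transcripts, from ATF6 (7470 bases) to MBTPS1 (4377 bases), had negative fold changes, and the 5 shortest, from PPP1R15A (3252 bases) to DDIT3 (1067 bases), had positive ones. After a trend with length and GC content was removed from each library, the correlation over all genes was -0.035. In that fit 11.4% of genes were called, 4.49% lower and 6.87% higher, and of the 10 genes none was lower and 2 were higher. ATF4 was still higher, by 0.13 (SE 0.0337, edgeR adjusted p = 0.0254). ATF6, the longest transcript, changed sign and became higher by 0.21 (SE 0.0441, edgeR adjusted p = 0.00577, and 0.00577 to 0.994 over the alternatives). EIF2AK3 (-0.08, edgeR adjusted p = 0.350) and PPP1R15B (-0.13, edgeR adjusted p = 0.144) were no longer called. Of the genes that had not passed before, DDIT3 went from 0.21 to 0.035 (edgeR adjusted p = 0.817), TRIB3 from 0.08 to 0.015, ATF6B from 0.07 to 0.0082, MBTPS1 from -0.11 to -0.05, MBTPS2 from -0.23 to -0.09 and PPP1R15A from 0.12 to 0.11 (edgeR adjusted p = 0.102). What the relation with length comes from was not tested.

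**Figure D3:**
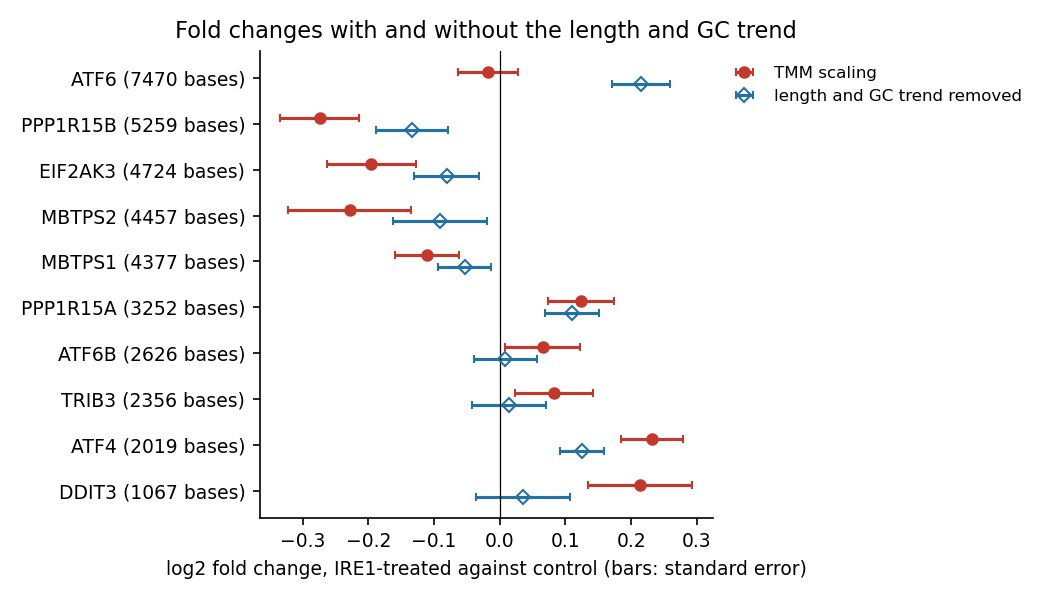
Log2 fold change of each gene, IRE1-treated against control, with SE as bars, in order of transcript length from the longest (ATF6, 7470 bases) at the top to the shortest (DDIT3, 1067 bases). Red circles use TMM scaling and blue diamonds the fit with the length and GC trend removed, and most values draw nearer to 0 in the second fit, whereas ATF6 moves from -0.02 to 0.21.

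The wider pathways around the 10 genes were read from 4 lists. Among 16 genes of the eIF2 pathway, 5 were higher and 1 was lower, with a median log2 fold change of 0.09 (over all tested genes 10.3% were higher and 12.4% lower). EIF2B3 and EIF2B4, subunits of the nucleotide exchange factor that phosphorylated eIF2 inhibits, were higher by 0.32 (SE 0.0681, edgeR adjusted p = 0.00352) and 0.28 (SE 0.0642, edgeR adjusted p = 0.00623). EIF2B1, another subunit (0.15), EIF2S2, the β subunit of eIF2 (0.19), and PPP1CA, a catalytic subunit that works with the PPP1R15 proteins (0.19), were also higher. EIF2S2 has 7 named pseudogenes, and EIF2B1, EIF2B3, EIF2B4 and PPP1CA share exonic sequence with genes on the opposite strand. Their counts are uncertain to that extent. EIF2AK4 (GCN2), the eIF2α kinase that senses amino acid shortage, fell by 0.27 on the log2 scale (edgeR adjusted p = 0.00645). Library size alone gave 2 higher and 3 lower in this list. Without control 1 or 2 the higher genes numbered 3 and 2, and without treated replicate 1 or 3 the lower genes numbered 2 and 3. EIF2B1 was not called without treated replicate 1 (0.13, edgeR adjusted p = 0.0702).

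Among 27 tested targets of ATF4 and CHOP, 5 were lower and 2 higher, with a median of 0.02. Over all tested genes 22.7% were called, 12.4% lower and 10.3% higher, and 7 called of 27 is near that share. Those lower were the amino acid transporters SLC7A11 (-0.45, edgeR adjusted p = 0.0267), SLC7A1 (-0.26, adjusted p = 0.00243), SLC38A2 (-0.25, adjusted p = 0.0173) and SLC7A5 (-0.16, adjusted p = 0.0213), and the tRNA exporter XPOT (-0.20, adjusted p = 0.0176). SLC7A11, the cystine transporter, was also the least abundant of them, with 142, 142 and 177 normalized counts in the controls and 99.4, 108 and 127 after IRE1, and antisense SLC7A11-AS1 shares its exonic sequence. GADD45A, a growth arrest gene (0.31, edgeR adjusted p = 0.0159), and ASNS, asparagine synthetase (0.15, edgeR adjusted p = 0.0487), were higher. ASNS has 5 named pseudogenes in the annotation. NUPR1, with at most 3 reads, was not tested. With library size alone 8 were lower and 0 higher. Without control 1 or control 2 only 1 was lower and 0 were higher, without control 3 or treated replicate 2 there were 3 lower and 1 higher, and without treated replicate 3 there were 5 higher. Without treated replicate 1, SLC7A11 (-0.38, edgeR adjusted p = 0.0553) and ASNS (0.10, edgeR adjusted p = 0.0780) were not called.

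Among the 15 ATF6 targets, 5 were higher and 2 lower, with a median of 0.10 (10.3% higher and 12.4% lower over all tested genes). The ER chaperones and cochaperones HSPA5 (BiP), HSP90B1, CALR and DNAJB11 and the ER stress factor MANF were higher, from 0.16 for HSP90B1 to 0.31 for MANF (edgeR adjusted p = 0.00121). HSPA5, the main ER chaperone, had 24496, 23749 and 23745 normalized counts in the controls and 27790, 26276 and 26416 after IRE1, without overlap (0.16, edgeR adjusted p = 0.0165). SEL1L and EDEM1, which serve ER-associated degradation, fell by 0.35 (edgeR adjusted p = 0.00191) and 0.14 (edgeR adjusted p = 0.0346). Without any 1 of the controls, 3 genes of this list were higher and 1 was lower, and 1 was lower without treated replicate 2.

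Among 13 tested relatives, cofactors and regulators of ATF6, 6 were lower and none higher, with a median of -0.05 (12.4% lower and 10.3% higher over all tested genes). CREB3L2, an ER-anchored transcription factor that is cut by the same proteases as ATF6, had 6003, 6122 and 6051 normalized counts in the controls and 4112, 4379 and 4625 after IRE1. No values overlapped, and its log2 fold change of -0.47 (SE 0.0501, edgeR adjusted p = 4.05e-05) passed the threshold in 15 of 15 alternatives. GNPTAB, whose precursor is cut by site-1 protease, fell by 0.34 (edgeR adjusted p = 0.00218). SREBF2 (-0.20, edgeR adjusted p = 0.00584) and SREBF1 (-0.16, adjusted p = 0.0364), the sterol-responsive substrates of both proteases, were lower, as were NFYA (-0.20, adjusted p = 0.0495), a promoter partner of ATF6, and WFS1 (-0.14, adjusted p = 0.0307), a negative regulator of ATF6 that is named here outside the rule for named genes. CREB3L1 and CREB3L3 had at most 5 reads and were not tested. Without any 1 of the controls 3 genes of this list were lower, and without treated replicate 3 there was 1 higher. Without treated replicate 1, NFYA (-0.16, edgeR adjusted p = 0.107) and SREBF1 (-0.11, edgeR adjusted p = 0.0579) were not called.

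With the length and GC trend removed, the eIF2 pathway had 4 genes higher and 0 lower. EIF2B3 and EIF2S2 were still called, EIF2B4 (edgeR adjusted p = 0.0550), EIF2B1 (0.249) and PPP1CA (0.309) were not, and EIF2S1 (0.22, edgeR adjusted p = 0.00948) and EIF2B2 (0.28, edgeR adjusted p = 0.0395) were called in that fit, though not before. The ATF4 and CHOP targets had 2 higher and 0 lower, but with other genes: GADD45A (edgeR adjusted p = 0.215) and ASNS (0.248) lost their calls, and VLDLR (0.24, edgeR adjusted p = 0.0461) and ERO1A (0.23, edgeR adjusted p = 0.00250) gained them. EIF2S1, EIF2B2, VLDLR and ERO1A are named here outside the rule, after their values were seen. The ATF6 targets had 3 higher (HSPA5, DNAJB11 and HSP90B1) and 0 lower, with CALR (edgeR adjusted p = 0.0557) and MANF (0.0572) no longer called. The relatives of ATF6 had 3 lower (CREB3L2, GNPTAB and WFS1) and 0 higher. Each call of a lower gene in the first 3 lists was lost in that fit, while CREB3L2 kept a log2 fold change of -0.27 (edgeR adjusted p = 6.12e-04, and 3.22e-18 to 0.00196 over its alternatives). Whether these counts are particular to the lists was not tested.

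**Figure D4:**
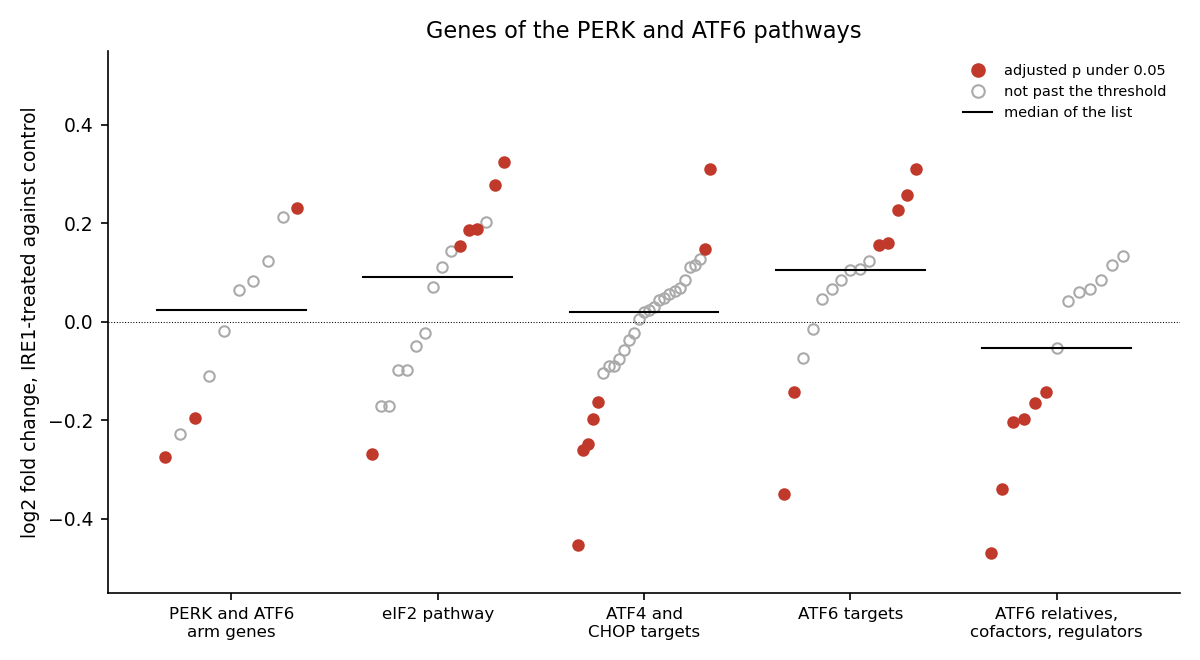
Log2 fold change of each tested gene of the 10 PERK and ATF6 arm genes and of the 4 lists around them, in ascending order within a list. Filled red circles passed an adjusted p of 0.05, open grey circles did not, and black lines mark medians, which run from -0.05 for the relatives of ATF6 to 0.10 for the ATF6 targets. The lowest point of all is CREB3L2 (-0.47).

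Across the 6 libraries, the profile of EIF2AK3 was most like those of YWHAQ (Pearson's r = 0.997), ZBTB44 (0.997) and ZNF92 (0.995), out of 10293 genes that averaged 100 normalized counts or more. For ATF6 the nearest were HYKK (0.983), ENSG00000090920 (0.974) and TAF13 (0.974). The libraries fall into 2 groups, and these names describe likeness in these libraries only.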

How the data were processed

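The data were 6 poly(A)-selected RNA-seq libraries, 3 IRE1-treated and 3 control, grouped by GEO's cleavage assay label. According to the submitters' processing notes, the authors trimmed reads with cutadapt 1.12, aligned them with STAR 2.5.3a and counted them per gene with HTSeq 0.6.1p1; the study's methods name GRCh37 and Ensembl release 87, and the strand setting of HTSeq is not given in the sources used here. The authors deposited raw gene counts and a CPM table of the more expressed genes, which was normalized by them and used only in an alternative. HTSeq's summary lines (21.4 to 23.2% of each file) were left out. Each sample had its own sequencing lane.

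Counts of 14398 genes (of 24945 with a count) that passed edgeR's filter were TMM-scaled and tested with the quasi-likelihood method in edgeR 4.0.16 (R 4.3.3), with no covariate, Benjamini-Hochberg adjustment over all tested genes and a threshold of 0.05. The fit and the hairpin search were checked on simulated data with planted answers. The fit recovered 100 of 100 planted 2-fold changes and 40 of 100 planted 1.2-fold changes, and called 15 unchanged genes. Planted genes averaged 100 reads or more and no other gene was changed, so these shares hold for that setting only. The search found 200 of 200 planted hairpins, but these were ideal 7-base loops, so weaker hairpins were not tried. Gene names (55538 identifiers matched), lengths and transcripts came from GENCODE release 44 on GRCh37. Sites were folded with ViennaRNA 2.7.2. Alternatives were DESeq2 1.42.0, library size only, upper quartile, no filter, at least 10 counts in every library, the replicate number as a block, removal of a trend with length and GC content (loess, span 0.5), that removal with the block, each library left out in turn, and limma 3.58.1 on the authors' CPM (log2, pseudocount 1). The members and gene lists were chosen with earlier results of these data known. Named genes are the 10 members, ERN1, XBP1 and BLOC1S1, up to 5 lowest and 5 highest called genes of each list that averaged 100 normalized counts or more, and the 3 genes most like EIF2AK3 and ATF6. PECAM1 found no match by symbol and was not used.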

Additional observations from a re-analysis of the deposited data

How the results depend on the processing

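The 10 genes had 304 to 25535 reads per library, and those with the fewest, MBTPS2 and DDIT3, also had the largest SE (0.0941 and 0.0791). The precision of changes this small depends on the depth and on the spread among 3 libraries per group, and these were not separated. A gene count cannot show where a transcript was cut, lane and sample cannot be told apart, and treated replicate 1 stood apart. Of all values compared with an alternative, 563 stayed the same, 114 lost their call, 10 gained one, 8 changed sign and 78 counts or levels moved. The same means on one side of the threshold, within the replicate spread or, for counts of genes, close to the main count. Such counts were not always equal: 2 of the 10 genes were lower in the main fit and 3 without a filter. The causes were not tested.

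With library size only, 4 of the 10 genes were lower; MBTPS1 (-0.19) and MBTPS2 (-0.30) gained a call and ATF6B changed sign (-0.012). In the lists, 3 eIF2 pathway genes were lower and 2 higher, 8 ATF4 and CHOP targets were lower and 0 higher, and 3 ATF6 targets were higher. Control levels per kilobase were 258 for ATF6, 1316 for ATF6B, 8498 for ATF4, 310.2 for DDIT3, 1105 for PPP1R15A and 363 for MBTPS1. Upper quartile scaling left 1 of the 10 lower, since EIF2AK3 (-0.19) lost its call. Without a filter MBTPS2 gained one (-0.24), and 1 ATF4 and CHOP target was higher. At least 10 counts in every library, or limma on the CPM, gave 2 eIF2 pathway genes lower.

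With the length and GC trend removed, 0 of the 10 were lower and 2 higher. EIF2AK3 (-0.081) and PPP1R15B (-0.13) lost their calls and ATF6 changed sign (0.21), as did XPOT (0.0022) and EDEM1 (0.028). Genes lower were 0 in the eIF2 pathway, 0 among ATF4 and CHOP targets, 0 among ATF6 targets and 3 among relatives of ATF6, and 3 ATF6 targets were higher.

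No pairing of the replicate numbers is stated, and the deviations of same-numbered libraries correlated at -0.028, 0.0020 and -0.098 across genes. With 3 libraries per group these correlations cannot show whether same-numbered libraries share an RNA preparation. A replicate block lowered the calls over all genes from 3270 to 2613. With it, 1 of the 10 genes was lower, EIF2AK3 (-0.20) having lost its call (edgeR adjusted p = 0.0521), 1 ATF4 and CHOP target was higher, 1 ATF6 target lower and 3 higher, and 3 relatives of ATF6 were lower. The replicate block together with the trend removed gave 0 of the 10 lower. EIF2AK3 (-0.083), ATF4 (0.13) and PPP1R15B (-0.14) were not called, and ATF6 (0.21), XPOT (0.0016) and EDEM1 (0.028) changed sign. In the lists this gave 0 eIF2 pathway genes lower, 0 ATF4 and CHOP targets lower and 1 higher, 0 ATF6 targets lower and 3 higher, and 1 relative of ATF6 lower.

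With each library left out in turn, 1 to 3 of the 10 genes were lower and 1 to 2 higher. The range was 1 to 3 lower and 2 to 6 higher for the eIF2 pathway, 1 to 5 lower and 0 to 5 higher for ATF4 and CHOP targets, 1 to 2 lower and 3 to 6 higher for ATF6 targets, and 3 to 6 lower and 0 to 1 higher for relatives of ATF6. The log2 fold changes ranged from -0.28 to -0.11 for EIF2AK3, -0.029 to -8.93e-04 for ATF6, -0.0068 to 0.12 for ATF6B, 0.20 to 0.28 for ATF4, 0.17 to 0.26 for DDIT3, 0.085 to 0.17 for PPP1R15A, -0.32 to -0.22 for PPP1R15B, -0.13 to -0.076 for MBTPS1, -0.34 to -0.14 for MBTPS2 and 0.034 to 0.14 for TRIB3.

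Per kilobase of the longest transcript, the control levels were 2039 for EIF2AK3, 479 for ATF6, 1771 for ATF6B, 10711 for ATF4, 370 for DDIT3, 1136 for PPP1R15A, 296 for PPP1R15B, 830 for MBTPS1, 109 for MBTPS2 and 914.5 for TRIB3. The genes with a hairpin site numbered 2 with CUGCAG only and 1 with a loop of exactly 7 bases, against 8 as first defined and 7 with 30 bases folded on either side.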
